A study of Mus musculus with 6 samples.

Results

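Between 5 and 35 Mb of mouse chromosome 7 (mm10), 269 protein-coding genes had at least 60 counts summed over the 6 libraries, and these genes are the members described here. They were taken from 643 protein-coding genes of that interval in the count tables, which hold 25006 genes in all, and 11827 protein-coding genes of the genome reached the same count. The interval was chosen because its genes were higher in MOSE-PAX8 than in MOSE-NEO in these same libraries, so the fold changes of the members are a description and carry no test of the interval. Of the other 374 genes, 283 had 0 counts in every library. All 269 members also passed the low-count filter of the genome-wide fit.

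Total RNA was sequenced from 2 stable lines of murine ovarian surface epithelial (MOSE) cells, the layer that covers the ovary. MOSE-PAX8 is named for the paired-box transcription factor PAX8 and MOSE-NEO for the selection marker, both lines were grown in G418 at 0.05 mg per mL, and each gave 3 libraries. The labels name a single line per group and do not say whether its libraries came from separate cultures, so the spread between libraries may be technical. Library totals ran from 23623762 to 36367825 counts.

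Pax8 had 0, 1 and 1 counts in MOSE-NEO replicates 1 to 3 and 2570, 2973 and 3544 in MOSE-PAX8 replicates 1 to 3. Counts per gene do not separate an introduced Pax8 from the endogenous gene. Of 8 listed markers of the ovarian surface epithelium, 5 exceeded a mean of 1 CPM (counts scaled to library size, as CPM with TMM factors), with Krt8, Krt19 and Lgals7 near 0. Their summed level was 7808 to 8735 CPM in MOSE-NEO and 4905 to 5897 CPM in MOSE-PAX8. The 4 fibroblast markers summed to 17609 to 20308 CPM in MOSE-NEO and 10549 to 11358 CPM in MOSE-PAX8, almost wholly from Dcn and Col3a1, with Pdgfra and Lum near 0. Leukocyte markers (5, with Laptm5 and Tyrobp at 0) stayed at or below 2.80 CPM summed, granulosa markers (4, with Fshr and Cyp19a1 at 0) at or below 2.47 CPM, and endothelial markers (4, with Cdh5 at 0) at or below 0.93 CPM. The part of these marker differences in the results below was not tested, and in bulk RNA fewer cells of a type and less RNA per cell cannot be told apart.

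The proximal part of this chromosome carries clusters of zinc-finger genes, many of which encode repressors with a KRAB domain that recruit TRIM28, a scaffold for chromatin-silencing enzymes. It also holds the Peg3 domain, an imprinted region in which Peg3 and Usp29 are transcribed from the paternal copy and start back to back. Further along lie genes for the growth factor TGF-beta 1 (Tgfb1), the receptor tyrosine kinase AXL (Axl) and the urokinase receptor (Plaur), and between them large families of vomeronasal receptor and pregnancy-specific glycoprotein genes that most tissues do not express.

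RefSeq promoter windows (GRCm38.p6, from 250 bases before to 50 after a start site) were matched by symbol for 239 of the 269 members, with 300 windows in all. Those of 4 single genes are shown with the GC box GGGCGG and the AP-1 motif TGANTCA in capitals on either strand, to set a gene of the raised stretch, which runs up to Pvr, beside 3 genes outside it. Trim28 starts on the + strand (chr7:13023902-13024201), Tgfb1 on the + strand (chr7:25686752-25687051), Axl on the - strand (chr7:25788684-25788983) and Plaur on the + strand (chr7:24462233-24462532).
Trim28: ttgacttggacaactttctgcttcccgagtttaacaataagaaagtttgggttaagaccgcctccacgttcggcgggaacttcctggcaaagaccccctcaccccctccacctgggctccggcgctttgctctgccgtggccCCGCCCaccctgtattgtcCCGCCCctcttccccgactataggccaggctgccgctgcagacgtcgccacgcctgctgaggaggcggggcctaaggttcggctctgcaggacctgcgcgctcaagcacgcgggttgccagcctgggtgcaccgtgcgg
Tgfb1: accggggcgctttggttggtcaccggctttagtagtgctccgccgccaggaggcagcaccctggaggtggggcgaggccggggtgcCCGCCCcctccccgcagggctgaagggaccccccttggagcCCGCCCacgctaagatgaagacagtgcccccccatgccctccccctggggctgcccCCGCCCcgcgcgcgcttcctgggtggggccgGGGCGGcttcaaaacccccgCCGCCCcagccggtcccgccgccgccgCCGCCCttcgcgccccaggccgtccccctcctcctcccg
Axl: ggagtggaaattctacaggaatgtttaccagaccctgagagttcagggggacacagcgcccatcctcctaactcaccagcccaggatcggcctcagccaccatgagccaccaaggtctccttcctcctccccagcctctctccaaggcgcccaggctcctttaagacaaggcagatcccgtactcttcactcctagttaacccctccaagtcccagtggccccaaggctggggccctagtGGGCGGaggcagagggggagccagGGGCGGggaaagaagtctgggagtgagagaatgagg
Plaur: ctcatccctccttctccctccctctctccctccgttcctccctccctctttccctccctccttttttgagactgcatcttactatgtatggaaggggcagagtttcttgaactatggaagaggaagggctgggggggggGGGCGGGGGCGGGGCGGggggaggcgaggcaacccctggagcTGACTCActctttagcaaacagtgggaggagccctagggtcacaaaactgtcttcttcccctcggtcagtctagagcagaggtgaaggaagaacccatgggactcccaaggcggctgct
GC boxes numbered 2 in the Trim28 window, 6 in that of Tgfb1, 2 in that of Axl and 3 in that of Plaur, where they share bases with each other. The AP-1 motif was found in the Plaur window alone of these 4.

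The windows of Peg3 (- strand, chr7:6730370-6730669) and Zfp583 (- strand, chr7:6330385-6330684) are shown with each CpG in capitals, because these are its zinc-finger genes that stood furthest above their cluster.
Peg3: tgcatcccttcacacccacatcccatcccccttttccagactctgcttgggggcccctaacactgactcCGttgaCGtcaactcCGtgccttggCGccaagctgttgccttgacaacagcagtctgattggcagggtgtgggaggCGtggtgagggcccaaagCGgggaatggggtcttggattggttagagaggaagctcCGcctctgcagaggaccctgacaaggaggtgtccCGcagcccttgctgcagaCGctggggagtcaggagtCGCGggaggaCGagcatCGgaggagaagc
Zfp583: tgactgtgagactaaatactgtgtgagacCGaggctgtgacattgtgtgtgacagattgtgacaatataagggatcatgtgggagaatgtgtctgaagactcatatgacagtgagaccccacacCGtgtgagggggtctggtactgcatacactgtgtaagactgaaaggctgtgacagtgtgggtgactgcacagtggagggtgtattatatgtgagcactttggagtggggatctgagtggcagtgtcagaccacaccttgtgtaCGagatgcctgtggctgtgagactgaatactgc
The Peg3 window held 13 CpG and that of Zfp583 held 3, against a median of 17 over the members' windows and 7 over all 32851 windows of the table. The Peg3 window shares 263 bases with the window of Usp29 on the opposite strand. Over the members, 60.7% of windows held a GC box against 35.7% of all windows, which include those of genes not expressed here. The shares were 11% and 7.2% for the E-box CACGTG, 11.3% and 6.1% for the YY1 motif GCCATNTT, 3.0% and 2.1% for GCGTGAC, a part of the paired-domain consensus, and 3.7% and 7.8% for the AP-1 motif, all on both strands. A match describes these letters and is not a bound site.

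The rise did not fill the interval. It was large over the genes from 5 Mb to about Pvr at 19.90 Mb and small over those from Zfp180 at 24.08 Mb on. Over all members the median log2 fold change was 0.33, with 113 called higher in MOSE-PAX8 at an adjusted p below 0.05, 18 called lower and 138 not called. Of all 12313 genes tested, 33.9% were called, 17.9% higher and 16.1% lower. Because the interval was picked from this contrast, nothing is read from the members' share of 42.0% called higher.

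The members were divided at the longest interval between neighbouring starts, a place chosen after the values were seen. The 102 members from 5 Mb to Pvr, the proximal stretch, had a median log2 fold change of 0.75, or 1.68-fold, with quartiles at 0.56 and 0.92. Here 99 of 102 lay above 0, 81 were called higher, 20 were not called, and Ppm1n was the 1 gene called lower. In 88 of the 102 every MOSE-PAX8 library lay above every MOSE-NEO library, which held for 25.3% of all tested genes. The 167 members from Zfp180 to 35 Mb, the distal stretch, had a median of 0.12, or 1.09-fold, with 32 called higher, 17 lower and 118 not called. Those are 19.2% and 10.2% of the distal members, near the background for genes called higher and below it for genes called lower.

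A division by the best 2-level fit fell between Bcam and Bcl3, a few genes earlier, and left both medians at 0.75 and 0.12. Between the end of Pvr and the start of Zfp180 lie 4.16 Mb in which 104 protein-coding genes, 64 of them vomeronasal Vmn1r receptors, had at most 47 summed counts, and 102 had 0. The members on either side of it had like values, with log2 fold changes of 0.38 in Bcl3 and 0.44 in Pvr before it and 0.45 in Zfp180 after it, so the change of level is not placed at this silent interval itself. Over the whole 5 to 35 Mb, 0 of 96 Vmn1r, 0 of 29 Vmn2r and 0 of 13 Psg genes were members. Of 14 Ceacam genes only Ceacam1 was a member, and of 13 Cyp2 genes Cyp2s1 and Cyp2t4.

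**Figure D1:**
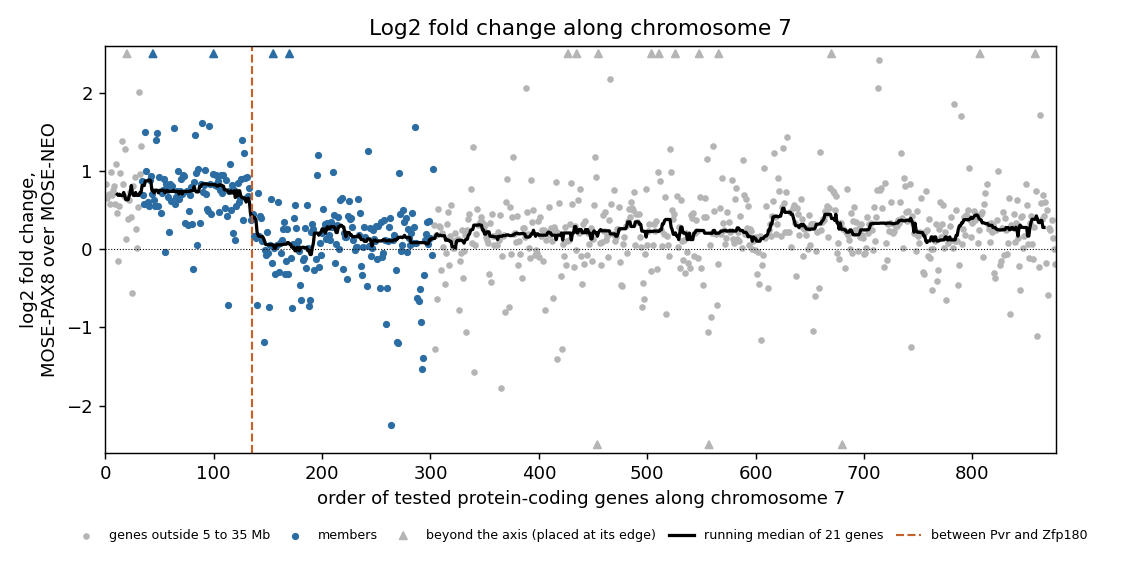
Log2 fold change of MOSE-PAX8 over MOSE-NEO (vertical axis) for the tested protein-coding genes of chromosome 7 in their order from the centromere-proximal end (horizontal axis), members in blue and other genes in grey, with the running median of 21 genes in black and triangles for genes beyond the axis. The line is at 0.88 around Epn1, declines to 0.60 at Bcam and 0.44 at Pvr before the dashed mark between Pvr and Zfp180, and goes on falling after it, with a lowest value of -0.07 within the interval.

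The raised level continued past the edge of the interval at 5 Mb. The 33 tested genes of chromosome 7 before 5 Mb had a median log2 fold change of 0.70, and 24 were called higher and 0 lower. The flanking genes were Sbk2 at 4.94 Mb with 1.32 and Fiz1 at 5.01 Mb with 0.87. In windows of 5 Mb the medians were 0.70, 0.74, 0.75 and 0.75 from the start of the chromosome to 20 Mb, and 0.12, 0.13 and 0.11 from 20 to 35 Mb. Those first 4 windows had the 4 highest medians among windows of the genome with at least 15 tested genes, the next being 0.50 at 130 Mb of chromosome 3. No step was seen at 35 Mb, where Pepd inside had 1.03, Cebpg outside had 0.30 and the window from 35 to 40 Mb had 0.18.

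The rest of the chromosome was not at 0 either. Its 574 tested genes after 35 Mb had a median of 0.24, above that of the distal stretch, whereas the median of all tested genes was 0.01 and that of genes outside chromosome 7 was -0.01. The running median of 21 genes within the interval was highest at 0.88 around Epn1 (5.08 Mb) and lowest at -0.07 around Ltbp4 (27.31 Mb). It declined over the last genes before the silent interval, from 0.60 at Bcam to 0.44 at Pvr. It fell below 0.43 after Pvr, and did so with a window of 41 genes too. That value is the midpoint between the median log2 fold changes of the 5 to 10 Mb and 30 to 35 Mb windows. With DESeq2, limma-voom, other scaling factors or other low-count filters, the running median passed the midpoint later. It then did so after a gene at 24.08 or 24.13 Mb, beyond the silent interval. A window of 11 genes dipped below the midpoint already after Hspbp1 at 4.66 Mb, before the interval begins.

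Each MOSE-PAX8 library showed the 2 levels. For every gene, log2(CPM + 1) was taken relative to its mean in MOSE-NEO, and the median over the proximal members was between -0.013 and 0.029 in the MOSE-NEO libraries and between 0.606 and 0.728 in the MOSE-PAX8 libraries (SD 0.063, n = 3). Over the distal members the MOSE-NEO libraries lay between -0.037 and 0.024 and the MOSE-PAX8 libraries between 0.092 and 0.133. The MOSE-NEO values are near 0 by construction, since the mean of these libraries was subtracted. The lines did not overlap in either stretch, nor did they after 35 Mb or over all tested genes. After 35 Mb the MOSE-PAX8 libraries lay between 0.182 and 0.241. Over all tested genes they lay between 0.007 and 0.028, and the MOSE-NEO libraries between -0.006 and 0.004. Summed CPM of the proximal members divided by that of the distal members was 0.387, 0.403 and 0.372 in MOSE-NEO replicates 1 to 3 and 0.591, 0.648 and 0.613 in MOSE-PAX8, a ratio within each library that needs no scaling between them.

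**Figure D2:**
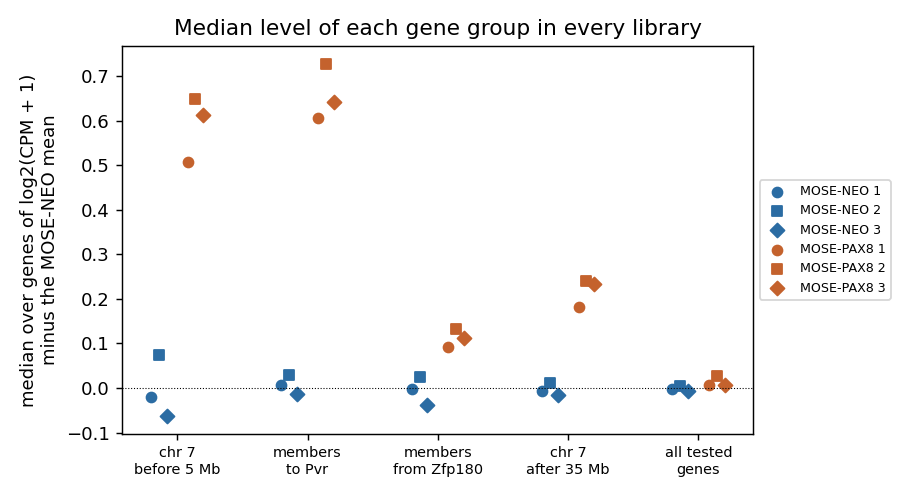
Median over genes of log2(CPM + 1) minus the gene's MOSE-NEO mean (vertical axis) for 5 groups of genes (horizontal axis), with 1 point per library, MOSE-NEO in blue and MOSE-PAX8 in orange. The MOSE-PAX8 points for the members up to Pvr lie between 0.606 and 0.728, and those for the members from Zfp180 between 0.092 and 0.133.

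The proximal level was similar in weakly and strongly expressed genes. In 3 equal groups of the proximal members by mean CPM, from low to high, the median log2 fold changes were 0.83, 0.76 and 0.74, and in such groups of the distal members 0.14, 0.15 and 0.10. The 3 members with the fewest summed counts were Zfp296 with 62, Capn12 with 63 and Ccdc106 with 70, at log2 fold changes of 1.39, 0.02 and 1.5. Just below the limit were Tmem91 with 55, Pou2f2 with 51 and Gipr with 49. Of the members, 67 overlap another counted gene, 56 of them on the opposite strand, and without a stated strand setting their reads cannot be assigned with certainty.

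Among the silencing genes, Trim28 moved as its neighbours did. Its level was 285, 319 and 288 CPM in MOSE-NEO replicates 1 to 3 and 478, 500 and 513 CPM in MOSE-PAX8. Every MOSE-PAX8 library was higher, the log2 fold change was 0.74 ± 0.08 (SE), and the median of the 20 nearest tested genes on each side was 0.74 as well. In the GENCODE annotation Trim28, recorded from 12999114, overlaps Zbtb45 on the opposite strand. The RefSeq window of Trim28 shown above begins at 13023902, past the end of Zbtb45 at 13010034. Of 14 listed genes of KRAB zinc-finger silencing across the genome, 4 were called higher (Trim28, Uhrf1, Pphln1 and Cbx1), 3 lower (Setdb1, Mphosph8 and Fam208a) and 7 were not called, with a median of 0.13. Fam208a fell from 33.0, 25.6 and 23.7 CPM in MOSE-NEO to 0.30, 0.35 and 0.09 CPM in MOSE-PAX8. Setdb1 (log2 fold change -0.46) and Mphosph8 (-0.36) fell far less. All 3 lie in windows of 5 Mb whose tested genes were lower as well. The window medians were -0.53 for Setdb1 (chromosome 3 from 95 Mb) and -0.4 for Mphosph8 (chromosome 14 from 55 Mb). For Fam208a (chromosome 14 from 25 Mb) the window median was -0.38. Trim28 and Fam208a were called with every single library left out. The call was lost for Cbx1 without any 1 library (adjusted p = 0.0539 to 0.177), for Uhrf1 without any but MOSE-NEO replicate 2 (0.0750 to 0.138), for Pphln1 without MOSE-NEO replicate 1 or 2, or without MOSE-PAX8 replicate 1 or 3 (0.0648 to 0.126), for Setdb1 without MOSE-PAX8 replicate 1 or 3 (0.0515 and 0.0554) and for Mphosph8 without MOSE-PAX8 replicate 3 (0.0518).

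Zinc-finger members were taken by symbols that start with Zfp, Zscan, Zik, Zim, Zkscan, Znf or Peg3. Zinc-finger genes with other symbols, such as Mzf1 and Zbtb45, were counted with the other members. The 61 zinc-finger members took the level of the stretch they lie in. The 25 in the proximal stretch had a median log2 fold change of 0.71, and 17 were called higher, 0 lower and 8 not called. The 77 other proximal members had 0.76. Called higher were 68% of these 25 and 83.1% of the 77, against 17.9% of all tested genes. The median level was 6.82 CPM in the 25 and 26.6 CPM in the 77. The 36 in the distal stretch had a median of 0.17, with 5 higher (13.9%), 1 lower (2.8%) and 30 not called. The 131 other distal members had 0.09, with 20.6% called higher and 12.2% lower. Without MOSE-NEO replicate 1 the median of the 36 was 0.27. Near-identical zinc-finger copies can share reads, and how reads with several alignments were counted is not given in the sources used here, so single genes of these clusters are uncertain.

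The 3 proximal clusters lay at a like level. Zfp524 to Zfp580 (5.01 to 5.05 Mb) has 3 members, with a median of 0.69, all called higher. Zfp787 to Zfp772 (6.13 to 7.21 Mb), which contains Peg3, has 11 members with a median of 0.72, of which 7 were called higher and 4 not called. Its lowest value was 0.46 in Zfp418. Zfp551 to Zfp446 (12.42 to 12.99 Mb) has 9 members with a median of 0.67, of which 5 were called higher and 4 not called, with 0.83 in both Zfp128 and Zfp606 at the top.

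The 3 distal clusters lay lower. Zfp180 to Zfp526 (24.08 to 25.23 Mb), directly beyond the silent interval, has 12 members with a median of 0.17, and its values ran from -0.71 in Zfp109 to 0.72 in Zfp108. Zfp180 was called higher at 0.45, Zfp109 lower, and the other 10 were not called. Zfp607b to Zfp36 (27.69 to 28.38 Mb) has 9 members with a median of 0.26 and 2 called higher. Its last gene, Zfp36, was grouped by symbol alone and encodes an RNA-binding protein of another zinc-finger type. Zfp84 to Zfp146 (29.77 to 30.17 Mb) has 15 members with a median of 0.12 and 2 called higher. The call of Zfp109 was lost when any library other than MOSE-PAX8 replicate 3 was left out (adjusted p = 0.0513 to 0.0835), and that of Zfp418 when any single library was left out (adjusted p = 0.0585 to 0.165).

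**Figure D3:**
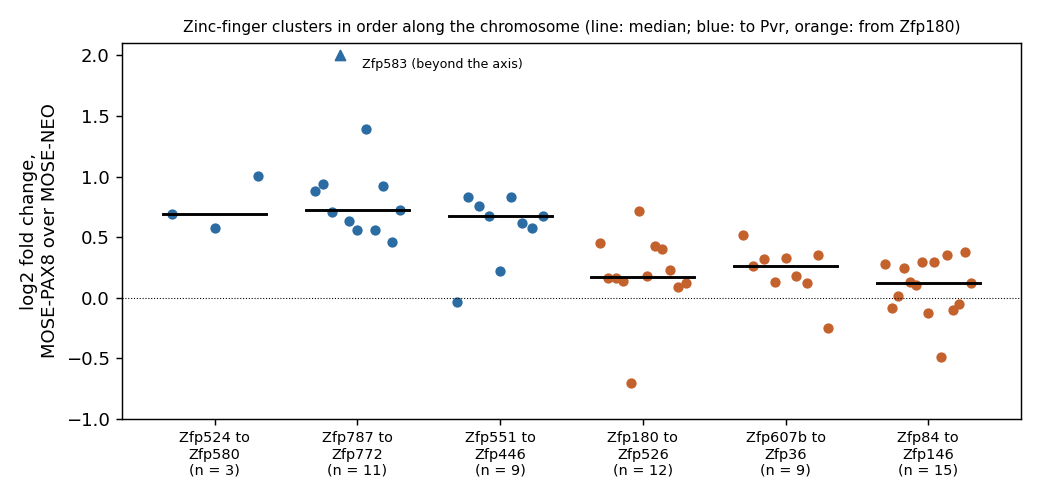
Log2 fold change of MOSE-PAX8 over MOSE-NEO (vertical axis) of the 59 zinc-finger members in 6 clusters, placed in chromosomal order (horizontal axis), with 1 point per gene, a line at each cluster's median and a triangle for Zfp583, which lies beyond the axis. The medians are 0.69, 0.72 and 0.67 in the 3 clusters before Pvr and 0.17, 0.26 and 0.12 in the 3 after it.

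Some zinc-finger genes departed from their cluster. Zfp583 had 0, 0 and 1 counts in MOSE-NEO and 41, 40 and 38 in MOSE-PAX8. The ratio of summed counts per total was 104, with an exact 95% counting interval of 18.3 to 4148. Zfp551 stood at 3.11, 3.39 and 3.22 CPM in MOSE-NEO and 2.73, 3.65 and 3.08 CPM in MOSE-PAX8. Its lines overlapped, at a log2 fold change of -0.04 ± 0.18 (SE) where its neighbours had a median of 0.74. Zfp110 had 48.9, 51.6 and 49.0 CPM in MOSE-NEO and 57.0, 55.6 and 61.2 CPM in MOSE-PAX8, a log2 fold change of 0.22 ± 0.07 (SE), 0.52 below its local median. The MOSE-PAX8 libraries were all above, but its call was lost when any single library was left out (adjusted p = 0.0567 to 0.197).

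Both measured genes of the Peg3 imprinted domain rose beyond their surroundings. Peg3, a zinc-finger protein expressed from the paternal copy, had 297, 275 and 183 CPM in MOSE-NEO replicates 1 to 3 and 607, 762 and 611 CPM in MOSE-PAX8. The lines did not overlap, the rise was 2.63-fold (log2 fold change 1.39 ± 0.18 SE) and the local median was 0.75. Usp29, a ubiquitin protease gene, had 5.97, 7.56 and 4.58 CPM in MOSE-NEO and 16.5, 17.3 and 16.6 CPM in MOSE-PAX8. It rose 2.80-fold (log2 fold change 1.48 ± 0.17 SE) against a local median of 0.73, and it overlaps Zim3 and Mir3099. Among the other listed genes of the domain, Zim1 had 18 summed counts, and Zim2 and Zim3 had 0.

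Tgfb1, Axl and Plaur, all in the distal stretch, were not called. Tgfb1 had 18.6, 22.3 and 25.6 CPM in MOSE-NEO and 28.5, 23.9 and 27.6 CPM in MOSE-PAX8. The lines overlapped, and the log2 fold change of 0.27 ± 0.13 (SE) lay 0.24 above a local median of 0.02. Without MOSE-NEO replicate 3 the log2 fold change was 0.39 and was called (adjusted p = 0.0423). Axl had 753, 682 and 806 CPM in MOSE-NEO and 797, 664 and 750 CPM in MOSE-PAX8, a log2 fold change of -0.02 ± 0.10 (SE) against a local median of 0.05. Plaur had 70.9, 73.9 and 87.8 CPM in MOSE-NEO and 81.1, 61.5 and 88.4 CPM in MOSE-PAX8, a log2 fold change of -0.01 ± 0.14 (SE) against 0.17. For both genes the libraries of the lines were interleaved.

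The partners of these 3 genes lie mostly on other chromosomes. Some were called higher and others lower, as were 17.9% and 16.1% of all tested genes. Nothing is read from the counts below. In the TGF-beta list 4 of 14 tested genes were called higher (Tgfb2, Ltbp1, Ltbp2 and Smad2), 2 fell (Ltbp4 and Tgfbr3) and 8 were not called. Ltbp1 and Ltbp2 rose at a low level, from means of 0.26 to 3.01 CPM and 0.079 to 0.38 CPM. The call of Smad2 was lost without MOSE-NEO replicate 2 or 3, or without MOSE-PAX8 replicate 1 or 3 (adjusted p = 0.0586 to 0.125). Among the TAM receptors and their ligands, Tyro3 rose, Mertk fell, and Axl and the ligand gene Gas6 were not called. Among genes of plasminogen activation, Plat and the inhibitor genes Serpine2 and Serpinb2 rose, and Plaur and Lrp1 were not called. Serpine2 and Serpinb2 were near 0 in MOSE-NEO, with means of 0.19 and 0.32 CPM. In MOSE-PAX8 their means were 1.59 and 5.61 CPM. Plau, which encodes the ligand of the urokinase receptor, had 4 summed counts.

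Ltbp4, a latent TGF-beta binding protein gene of the distal stretch, had 271, 216 and 251 CPM in MOSE-NEO and 184, 153 and 133 CPM in MOSE-PAX8. It fell by 0.65 on the log2 scale (SE 0.13), and no MOSE-PAX8 library reached a MOSE-NEO library. Its neighbour Numbl, a Numb-like adaptor gene, had 27.5, 22.2 and 27.5 CPM in MOSE-NEO and 14.4, 17.0 and 15.7 CPM in MOSE-PAX8 and fell by 0.72.

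**Figure D4:**
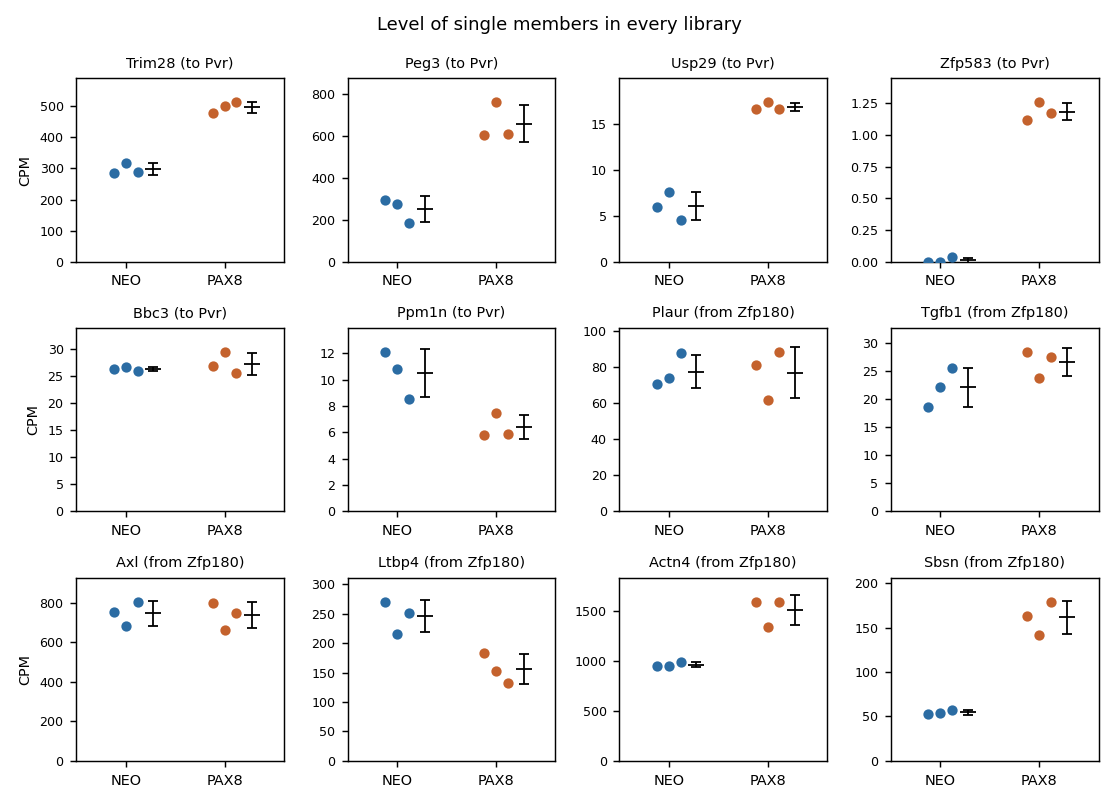
CPM (vertical axis, from 0) of 12 members in MOSE-NEO (blue) and MOSE-PAX8 (orange), with 1 point per library in the order of replicates 1 to 3 and the mean ± SD beside them. Trim28, Peg3, Usp29 and Zfp583 lie higher in every MOSE-PAX8 library, Bbc3, Plaur, Tgfb1 and Axl overlap between the lines, and Ppm1n and Ltbp4 lie lower in every MOSE-PAX8 library.

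The members kept about as close to their neighbours as genes elsewhere. The log2 fold change was within 0.25 of the local median for 63 of the 102 proximal members (61.8%) and for 98 of the 167 distal members (58.7%), against 58.2% of all 11874 tested protein-coding genes measured in the same way. More than 1 above it were 2 proximal and 5 distal members, and more than 1 below it were 2 proximal and 9 distal members.

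In the proximal stretch, few genes missed the rise. Ppm1n, a protein phosphatase gene, had 12.1, 10.8 and 8.57 CPM in MOSE-NEO and 5.82, 7.48 and 5.89 CPM in MOSE-PAX8. It fell by 0.72 (SE 0.17) where its neighbours had a median of 0.77. Bbc3, which encodes the cell death protein PUMA, had 26.3, 26.8 and 26.1 CPM in MOSE-NEO and 26.9, 29.5 and 25.6 CPM in MOSE-PAX8, with overlapping lines and a log2 fold change of 0.05 ± 0.08 (SE) against a local median of 0.80. Meis3, a homeobox gene, was at -0.25 ± 0.18 (SE), and Klc3, a kinesin light chain gene, at 0.12 ± 0.15 (SE), both with overlapping lines. Zc3h4 was called higher at 0.34 but lay 0.48 below its local median. Bbc3, Meis3 and Klc3 were chosen after their values were seen.

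Above their neighbours in the proximal stretch, Tomm40, a pore subunit of the mitochondrial outer membrane, rose from 37.5 ± 2.02 to 71.1 ± 6.96 CPM (SD, n = 3). Its log2 fold change of 0.92 lay 0.49 above a local median that spans both stretches. The upper quartile of the proximal members alone was 0.92 as well. Nova2, a splicing factor gene of neurons, had 10, 3 and 6 counts in MOSE-NEO and 54, 83 and 74 in MOSE-PAX8, so that every MOSE-PAX8 library was higher at a low level.

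In the distal stretch single genes rose well above a flat surrounding. Sbsn, the suprabasin gene of stratified epithelia, had 52.5, 53.6 and 57.1 CPM in MOSE-NEO and 163, 142 and 179 CPM in MOSE-PAX8. It rose 2.96-fold (log2 fold change 1.57 ± 0.10 SE) against a local median of 0.10. Pepd, which encodes a dipeptidase that releases proline, rose 2.04-fold from 44.6 ± 4.11 to 90.9 ± 7.59 CPM (SD, n = 3) beside a local median of 0.09. Actn4, an actin cross-linking protein gene, had 945, 950 and 989 CPM in MOSE-NEO and 1592, 1332 and 1588 CPM in MOSE-PAX8 and rose by a log2 fold change of 0.65 ± 0.10 (SE), where neighbours had 0.16. Actn4 overlaps Capn12 on the opposite strand.

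Other distal genes above their neighbours were Prx (log2 fold change 0.94), a myelin protein gene, B9d2 (0.56), a gene of the ciliary transition zone, Ethe1 (0.65), a mitochondrial sulfur dioxygenase gene that overlaps Zfp575, and Plekhg2 (0.65). In all 4 every MOSE-PAX8 library lay above every MOSE-NEO library. The call of Ethe1 was lost without MOSE-NEO replicate 1 or 2, or without MOSE-PAX8 replicate 3 (adjusted p = 0.0608, 0.0564 and 0.0590), and that of Plekhg2 without MOSE-NEO replicate 2 (adjusted p = 0.0604). At low counts, Tex101 went from 0, 0 and 1 to 17, 20 and 35 counts, a ratio of 63.0 with a counting interval of 11 to 2523. Ceacam1, an adhesion protein gene, went from 2, 2 and 1 to 35, 60 and 78 counts, and it overlaps 4732471J01Rik.

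Distal genes also fell. Aplp1, an amyloid precursor-like protein gene, had 151, 162 and 184 CPM in MOSE-NEO and 76.6, 73.3 and 67.2 CPM in MOSE-PAX8, a 2.29-fold fall (log2 fold change -1.19 ± 0.09 SE) beside a local median of 0.12. Capns1, the small subunit of calpains, fell from 487 ± 24.1 to 345 ± 32.9 CPM (SD, n = 3), and Clip3, a microtubule linker protein gene, from 6.29, 6.13 and 9.23 CPM to 1.09, 1.92 and 1.57 CPM. Spint2, a protease inhibitor gene, was at -0.46 ± 0.12 (SE) and lost its call without MOSE-PAX8 replicate 3 (adjusted p = 0.0675). Cyp2s1, a cytochrome P450 gene, was also at -0.46 ± 0.12 (SE), and lost its call without MOSE-PAX8 replicate 1 or 3 (adjusted p = 0.0508 and 0.0683).

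Genes around Lsr at 30.96 Mb lay below 0, a place picked out after its values were seen. Lsr, a lipoprotein receptor gene of tricellular junctions, had 411, 509 and 460 CPM in MOSE-NEO and 326, 295 and 274 CPM in MOSE-PAX8 and fell by 0.62 (SE 0.11). Fxyd3, a regulator of the sodium pump, fell by 1.53 and Lgi4, which it overlaps, by 0.93. Fam187b was at -0.66. Fxyd5 (-0.51) and Gramd1a (-0.33) were not called. The call of Fam187b was lost without MOSE-PAX8 replicate 3 (adjusted p = 0.0590).

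The listed functional groups are given with the stretch in which each named gene lies. Of 4 DNA repair genes, the 3 in the proximal stretch were called higher: Lig1, DNA ligase I, rose from 42.1 ± 2.17 to 81.5 ± 4.88 CPM (SD, n = 3), Ercc2, a helicase of nucleotide excision repair, had a log2 fold change of 0.76, and its partner nuclease gene Ercc1 had 0.50. Xrcc1, a scaffold of single-strand break repair in the distal stretch, was at 0.06 ± 0.10 (SE) and not called. The call of Ercc1 was lost without MOSE-NEO replicate 2 or 3, or without MOSE-PAX8 replicate 2 (adjusted p = 0.0726, 0.0703 and 0.0647).

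Of 12 genes of transcription and splicing, 3 were called higher, 1 lower and 8 not called. U2af2, a factor that recognizes the 3' splice site, rose from 92.9 ± 4.03 to 142 ± 3.71 CPM and Snrpd2, a core spliceosome protein gene, from 13.6 ± 1.31 to 26.2 ± 0.88 CPM (SD, n = 3), both proximal. Erf, an ETS repressor gene in the distal stretch, rose by a log2 fold change of 0.34. The transcriptional repressor gene Cic, also distal, was at -0.32. Its call was lost without MOSE-NEO replicate 1 or 2, or without MOSE-PAX8 replicate 1 or 3 (adjusted p = 0.115, 0.0985, 0.127 and 0.169).

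Of 8 mitochondrial genes, Tomm40 and Opa3 rose in the proximal stretch (log2 fold changes 0.92 and 0.88). In the distal stretch Timm50 and Ethe1 were called higher (0.41 and 0.65), and Cox7a1 fell by 0.95.

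Of 4 sequence-specific factor genes without zinc-finger arrays among the members, Npas1 (log2 fold change 1.62), Fosb (1.08) and Six5 (0.76) rose in the proximal stretch and Usf2 in the distal stretch was not called. Relb, an NF-kB subunit gene of the proximal stretch, rose by 1.23 from 3.32 ± 0.56 to 7.77 ± 0.35 CPM (SD, n = 3). Nfkbib, a distal gene for an inhibitor of NF-kB, was at 0.40. Bcl3, a proximal gene for a nuclear partner of NF-kB, was at 0.38 and not called. The call of Nfkbib was lost without MOSE-NEO replicate 1, or without MOSE-PAX8 replicate 1 or 3 (adjusted p = 0.0839, 0.125 and 0.117), and Bcl3 was called without MOSE-NEO replicate 2 (adjusted p = 0.0277).

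Of 8 kinase genes, Mark4 (0.55) and Prkd2 (0.49) in the proximal stretch and Gsk3a (0.26) in the distal stretch were called higher, and 5 were not called. The call of Prkd2 was lost without MOSE-NEO replicate 2, or without MOSE-PAX8 replicate 3 (adjusted p = 0.0505 and 0.0558), and that of Gsk3a without MOSE-NEO replicate 3, or without MOSE-PAX8 replicate 2 or 3 (adjusted p = 0.0573, 0.0508 and 0.0909).

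Of 7 adhesion and surface genes, 4 were called higher, 2 lower and 1 was not called. Bcam, a laminin receptor gene, rose from 255 ± 23.2 to 438 ± 22.5 CPM and the nectin gene Nectin2 from 276 ± 32.7 to 443 ± 15.8 CPM (SD, n = 3). The poliovirus receptor gene Pvr rose from 24.4 ± 2.62 to 33.1 ± 2.14 CPM (SD, n = 3), beside Ceacam1 in the distal stretch. These first 3 are the last genes of the raised stretch but for Bcl3, and Lsr and Spint2 in the distal stretch were lower. Of 7 genes of actin and membrane traffic, Arhgap35 (0.73), Napa (0.70) and Ap2s1 (0.83) rose in the proximal stretch, where Ehd2 was called higher at 0.31. In the distal stretch Actn4 rose and Capns1 fell. The call of Ehd2 was lost without MOSE-NEO replicate 1 or 3, or without MOSE-PAX8 replicate 1 or 3 (adjusted p = 0.0828, 0.0613, 0.108 and 0.0617).

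Both genes listed for apoptosis, Bbc3 and Ppp1r13l, an inhibitor of p53 function, lie in the proximal stretch and were not called. Apoe, the apolipoprotein E gene of the proximal stretch, had 4.54, 2.13 and 1.39 CPM in MOSE-NEO. It had 2.16, 7.35 and 3.30 CPM in MOSE-PAX8 and was not called. MOSE-NEO replicate 1 and MOSE-PAX8 replicate 2 were its highest libraries, and these 2 libraries also had the largest shares of lincRNA counts, 0.317% and 0.330% against 0.146% to 0.195% in the others. Both were highest within their own line for 79 of the 269 members (29.4%), and for 23.8% of all tested genes. Without these 2 libraries the medians of the proximal and distal stretches were 0.72 and 0.09.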

How the data were processed

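RNA sequencing counts per gene of 6 libraries were used, 3 per line, with groups from the titles. The authors deposited unnormalized read counts for each Ensembl gene, and the submitters' processing notes list cutadapt 1.13, STAR, HTSeq 0.6.1p1, DESeq2 and the mm10 build. The annotation is not given in the sources used here, nor the strand setting or the handling of multiply aligned reads. Symbols, types and positions came from GENCODE M21, which matched 24991 of 25006 identifiers, and coordinates are counted from 1.

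MOSE-PAX8 was compared with MOSE-NEO on all genes by edgeR 4.0.16 (R 4.3.3, quasi-likelihood, TMM factors, filterByExpr, Benjamini-Hochberg adjustment over 12313 genes) with a threshold of 0.05 on the adjusted p. Adjusted p-values in the text are from this fit, or from the same fit with the named library left out or the replicate block added. They measure only the spread between these libraries. Higher and lower mean MOSE-PAX8 relative to MOSE-NEO, and a local median is over the 20 nearest tested protein-coding genes on each side. The fit was also run on simulated counts in which a small part of the genes was raised by known folds. Every simulated gene had the same dispersion and none was lowered, unlike these data. That run therefore does not measure the error of the calls given here.

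The members and gene lists were chosen with earlier results of these data known. Named genes are the single genes Trim28, Peg3, Tgfb1, Axl and Plaur, the 10 members furthest above and the 10 furthest below their local median (at 10 CPM or more on average in the higher line, with no overlap between lines), examples of the lists, the extremes of zinc-finger clusters (at least 3 members with starts within 1 Mb) and genes at the limits of the rule. Usp29, Zfp583, Zfp551, Nova2, Tex101, Ceacam1, Clip3, Meis3, Klc3, Bbc3, Fxyd3 and the genes beside it, and list members that are not among the most abundant, were chosen after their values were seen, unless they fall under that rule. Counting intervals are exact at 95% and cover counting error only. Alternatives were DESeq2 1.42.0, limma-voom (limma 3.58.1), RLE and upper-quartile factors, other low-count filters, count limits, edges and windows, the replicate number as a block, and each library left out. Leaving out both libraries rich in lincRNA and the division into 2 stretches were added after seeing the data. Some results of the named genes and lists are not reported here.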

Additional observations from a re-analysis of the deposited data

How the results depend on the processing

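Over the alternatives with the interval unchanged, 90 to 117 members were called higher and 12 to 19 lower, and the median of the members up to Pvr stayed between 0.72 and 0.78. Leaving out 1 library gave 90 to 109 higher and 12 to 19 lower. The median of the members from Zfp180 was 0.146 with upper-quartile factors, 0.0937 without both lincRNA-rich libraries, and 0.0951 to 0.144 with 1 library left out. The last gene before the running median fell below the midpoint defined above started at 24.08 Mb with DESeq2, RLE or upper-quartile factors. The same start was found with no low-count filter or the filter of 1 CPM in 3 libraries. It was 24.13 Mb with limma-voom and without both lincRNA-rich libraries. With 1 library left out it was 19.76 to 24.13 Mb, and with a window of 11 genes 4.66 Mb. Equal replicate numbers did not pair the libraries (correlations of deviations -0.47, 0.05 and 0.40). With the replicate block 104 members were called higher and 16 lower and the position was 24.13 Mb; the block ended the calls of Zfp110, Zfp109, Zfp418, Nfkbib and Ehd2 among the named members and added that of Bcl3 (adjusted p = 0.0108). Log2 fold changes near 0 changed sign: Axl was at 0.0011 with upper-quartile factors, 0.046 without both lincRNA-rich libraries and -0.092 to 0.051 with 1 library left out; Plaur at 0.0095, 0.056 and -0.12 to 0.13 in the same settings. Bbc3 was at -0.020 and Xrcc1 at -0.022 without both lincRNA-rich libraries, and with 1 library left out Bbc3 ran from -0.0080 to 0.097, Xrcc1 from -0.016 to 0.12 and Zfp551 from -0.16 to 0.054. The cause of these changes was not tested. Of 1138 values for 76 named members under the alternatives, 1053 kept direction and side of the threshold, 68 lost the call, 3 gained it and 14 changed sign. With 3 libraries per line, and few counts in genes such as Zfp583 and Tex101, the size of single changes is loosely bounded.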
